A study of Homo sapiens with 22 samples.

Results

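The transcriptome described here is that of untreated wild-type LUHMES cells, a human mesencephalic line, and covers the 4 libraries of the 22 in the study whose titles name control cells with no treatment. LUHMES cells are conditionally immortalised precursors of embryonic midbrain origin that can be turned into post-mitotic neurons with dopaminergic features. The design text calls the cells of the study differentiated. The 4 libraries carried the wild-type genotype and received neither 6-OHDA nor a compound; the sources used here give neither whether they carried an empty vector nor how long they were differentiated. Polyadenylated RNA of each was sequenced and quantified as estimated counts per gene. All 4 come from 1 cell line, and nothing in the labels says that they were separate cultures, so the spread between them may be technical. No other group of the study is compared here.

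Dopaminergic neurons make dopamine from tyrosine. Tyrosine hydroxylase (TH) makes L-DOPA with tetrahydrobiopterin as cofactor, and aromatic L-amino acid decarboxylase (DDC) turns L-DOPA into dopamine. The vesicular monoamine transporter (SLC18A2) loads dopamine into vesicles, the dopamine transporter (SLC6A3) takes it back up, and enzymes such as the monoamine oxidases break it down. In the midbrain, EN1, EN2, LMX1A, LMX1B, FOXA2, OTX2, NR4A2 and PITX3 specify and maintain these cells. A young neuron of any transmitter type is marked by a microtubule and neurofilament programme that includes DCX, MAP2 and NEFL. TH, MAP2, DCX and NEFL were expressed in all 4 libraries, with the values given below.

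Estimated counts summed to 6.79, 6.44, 6.11 and 10.6 M (M, mega) in replicates 1 to 4. Levels are given below as CPM (counts per M counts) on library sizes scaled by the trimmed mean of M-values, and ± is the SD over the 4 libraries (n = 4) unless stated otherwise. A gene is called expressed where it reached 1 CPM in all 4 libraries, and below the floor where every library had under 3 counts. That floor was 0.437, 0.479, 0.489 and 0.280 CPM in replicates 1 to 4, which also serves as an approximate upper limit for a count of 0 from counting error alone. A gene above that level can still give a count of 0, though rarely. All other genes with a count are called low. Of the 34679 genes in the table, 13313 were expressed (38.4%), 5816 were low, 4277 were below the floor and 11273 were listed at 0. Among 19075 protein-coding genes, 12462 were expressed (65.3%) and 2106 were listed at 0, and their median level was 7.19 CPM.

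Replicate 2 stood apart from the other 3 libraries. It was the library farthest from the mean of the other 3 on the log2 scale for 5337 expressed genes (40.1%), against 3213 genes for replicate 1, 2473 for replicate 3 and 2290 for replicate 4. The first principal component, with 43.9% of the variance of log2 CPM, placed it at 35.2 and the others at −18.6, −10.2 and −6.42. With 4 libraries there are only 3 components, and the second held 32.4% of that variance. A call that asks for every library is eased when any library is left out, so counts of expressed genes then rise by construction. They were 13440, 13650, 13555 and 13432 without replicates 1, 2, 3 and 4, and say little about replicate 2 in particular. The calls below were made again without replicate 2. Of the 41 gene lists, 9 then had more expressed members, and these 9 counts are given both ways below. Some lists also had more expressed members when another library was left out.

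A zero in this table cannot be read as a missing transcript, because genes that every cell uses were also found near 0. In 136 genes of the proteasome, RNA polymerase II, chaperonin, cytosolic ribosome, elongation factors and ubiquitin, a panel chosen after the values had been seen, 4 fell under 1 CPM in at least 1 library and 14 averaged under 10 CPM. The ubiquitin gene UBB had 0, 0, 0 and 1 counts in replicates 1 to 4. The elongation factor subunit EEF1G had 1.17, 0.638, 0.326 and 0.280 CPM and the small ribosomal protein gene RPS18 3.79, 3.19, 2.44 and 1.96 CPM in the same order. The cell cycle inhibitor CDKN1B was listed at 0 in all 4 libraries. Genes are therefore described below as low, below the floor or listed at 0, and not as absent.

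The most highly counted genes combined housekeeping, transport and neuronal functions. The 25 genes of highest mean CPM held 7.97, 8.16, 7.86 and 7.69% of counts in replicates 1 to 4, and 842 genes held 50% of the mean profile. At the top stood cytoplasmic actin ACTB (6493 ± 787 CPM), elongation factor EEF1A1 (5674 ± 832 CPM), actin ACTG1 (5414 ± 643 CPM) and the mitochondrial cytochrome oxidase subunit MT-CO1 (4934 ± 258 CPM). They were followed by the dynein heavy chain DYNC1H1 with 4778, 4666, 4659 and 4506 CPM in replicates 1 to 4 and by the axonal kinesin KIF1A with 4544, 4384, 4368 and 4043 CPM, the motors that carry cargo towards and away from the cell body. DCTN1, a dynactin subunit that couples dynein to cargo, was in the same group at 2199.6 ± 105 CPM. The CV, which is the SD divided by the mean, was under 5% for both motors and for DCTN1.

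Adhesion, guidance and cytoskeletal genes made up much of the rest of these 25. They included the receptor phosphatase PTPRS (3155 ± 195 CPM), the neural cell adhesion molecule NCAM1 (2716 ± 140.1 CPM), the axonal adhesion molecule CNTN2 (2333 ± 418 CPM), the neuronal navigator NAV1 (2311 ± 100.98 CPM), the cytolinker DST (2437 ± 271 CPM) and the APC homologue APC2 (2261 ± 177 CPM). CNTN2 spread more than its neighbours, with 2615, 2748, 2106 and 1863 CPM in replicates 1 to 4, so that replicates 1 and 2 were the higher pair. CTNNB1, which encodes beta-catenin, reached 2965 ± 173 CPM and the chromatin remodeller CHD4 2485 ± 62.9 CPM. DCX, DPYSL2, NEFM and the transcription factor EBF3 were the members of the neuronal lists in this group, and EBF3 was its only sequence-specific transcription factor, at 2153, 2102, 2266 and 2237 CPM. The remaining members were ANKRD30BL (4415 ± 488 CPM), C14orf132 (3137 ± 162 CPM), PRRC2B (2664 ± 155 CPM), the myelin and membrane-raft proteolipid PLLP (2037 ± 239 CPM), the imprinted retrotransposon-derived gene PEG10 (2026 ± 117 CPM) and the glycolytic enzyme GAPDH (1853 ± 234 CPM).

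**Figure D1:**
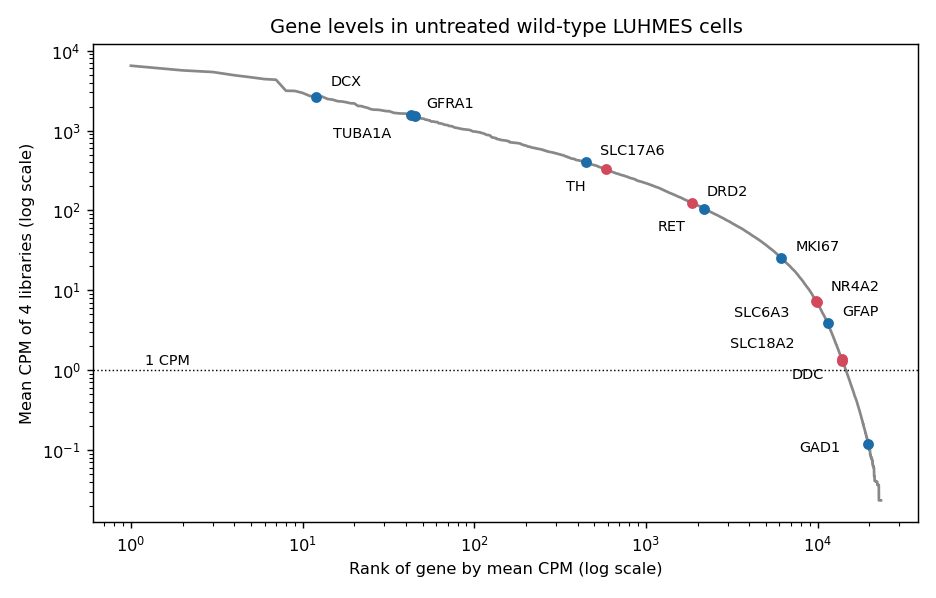
Mean CPM of every gene with a count in the 4 untreated wild-type libraries (y axis, log scale) against its rank (x axis, log scale), with dopamine-related genes in red and other identity genes in blue. DCX (2669 CPM) and GFRA1 (1576 CPM) lie near the top, and TH (327 CPM) and DRD2 (123.9 CPM) between 100 and 1000 CPM. SLC6A3 (7.03 CPM) lies above the 1 CPM line, and SLC18A2 (1.38 CPM) and DDC (1.31 CPM) lie close to that line.

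Long transcripts collect more counts, so orders between genes are given per length, as CPM per kb of the longest annotated transcript. On that scale MT-CO1 (3200.0), ACTB (2892) and ACTG1 (2399.9) led, and 7 of the 25 genes of highest CPM stayed among the 25 highest per length. DYNC1H1, whose longest transcript has 20.0 kb, came to 233 CPM per kb. Neuronal genes were among those that took such places per length. They were the alpha-tubulin TUBA1A (794), the microtubule-destabilising stathmin STMN2 (767), the amyloid-precursor-like protein APLP1 (708), the ubiquitin hydrolase UCHL1 (649), the actin-binding drebrin DBN1 (591) and the collapsin response mediator CRMP1 (580.5), each in CPM per kb. This order depends on the length chosen: 17 of the 25 genes stayed with the union of exons and 8 with the median transcript length.

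Nearly all neuronal cytoskeleton genes were expressed. Positions here and below are those of GENCODE 29 on GRCh38. Of the 26 measured here, 25 were expressed (96.2%, against 65.3% of protein-coding genes), with a median of 388 CPM. DCX (chrX:111293779-111412429, minus strand), a microtubule-associated protein of migrating and young neurons, had 2657, 2446, 2861 and 2713 CPM in replicates 1 to 4. MAP2 (chr2:209424058-209734118, plus strand), the dendritic microtubule protein, had 1559, 1588, 1665 and 1726 CPM, and the neurofilament light chain NEFL had 1394, 1662, 1479 and 1442 CPM. Their CVs were 6.43% for DCX, 4.62% for MAP2 and 7.84% for NEFL, against a median of 5.57% over genes from 1000 CPM. NEFL was highest and DCX lowest in replicate 2.

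Per length the light neurofilament chain NEFL came to 366, the medium chain NEFM to 489 and the heavy chain NEFH, which marks mature axons, to 43.5 CPM per kb. Growth-associated protein GAP43 averaged 774 ± 46.2 CPM and the stathmin STMN2, both growth cone proteins, 1704 ± 86.4 CPM. Tubulins differed widely among themselves per length, from 794 for TUBA1A through 48.7 for the neuronal beta-tubulin TUBB3 to 5.20 CPM per kb for TUBB2A, and TUBB2B was low. Tubulin genes are near-identical in parts, so the division of reads among them is uncertain. TUBA1A had 1288, 2119, 1278 and 1397 CPM in replicates 1 to 4, and without replicate 2 its values did not exceed 1397 CPM. Tau (MAPT) averaged 77.0 ± 5.53 CPM and MAP1B 758 ± 75.9 CPM.

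Neuronal RNA-binding proteins and pan-neuronal transcription factors were also expressed in 23 of 25 cases (92.0%, against 65.3% of protein-coding genes; 24 without replicate 2), with a median of 121 CPM. EBF3 (2189 ± 75.5 CPM), EBF1 (689 ± 36.1 CPM) and EBF2 (92.6 ± 6.29 CPM), helix-loop-helix factors of early neuronal differentiation, stood beside SOX4 (1441 ± 61.0 CPM). The splicing regulators RBFOX2 (1229 ± 34.7 CPM) and RBFOX3, the neuronal nuclear antigen NeuN (164 ± 9.46 CPM), were expressed, whereas RBFOX1 had 2.04, 0.638, 0.651 and 0.932 CPM in replicates 1 to 4 and was low. Among the Hu proteins, ELAVL2 came to 114.5, ELAVL3 to 59.8 and ELAVL4 to 9.34 CPM per kb.

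The synaptic list was expressed in 30 of 35 members (85.7%, against 65.3% of protein-coding genes), or in 32 without replicate 2, with a median of 42.5 CPM. Presynaptic release genes were expressed, among them synaptophysin SYP (411 ± 34.4 CPM), the priming factor UNC13A (385 ± 16.2 CPM), SNAP25 (92.6 ± 7.81 CPM) and synapsin SYN1 (73.2 ± 2.39 CPM). The postsynaptic scaffold DLG4 reached 405 ± 47.6 CPM. The active-zone protein BSN was low at 0.874, 0.319, 0 and 0.653 CPM in replicates 1 to 4, although its partner PCLO averaged 78.6 ± 5.00 CPM, and the vesicle protein SV2C was below the floor. The synaptotagmin SYT2 had 0, 3.51, 7.00 and 5.87 CPM, with no count in replicate 1.

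Of 21 voltage-gated channel genes 17 were expressed (81.0%, against 65.3% of protein-coding genes). The T-type calcium channel CACNA1H averaged 874 ± 62.2 CPM and the P/Q-type channel CACNA1A 666 ± 12.7 CPM with a CV of only 1.91%. Among sodium channels, SCN3A, the form best known from developing brain, came to 52.5 CPM per kb, against 18.2 for SCN8A, 2.21 for SCN2A and 0.265 for SCN1A. The L-type channel CACNA1D, known for pacemaking in midbrain dopaminergic neurons, averaged 3.96 ± 2.12 CPM. Transmitter receptor genes were expressed in 13 of 22 cases, a share of 59.1% that lies near the 65.3% of protein-coding genes. Among them were the AMPA receptor subunit GRIA2 (291 ± 22.7 CPM), the kainate subunit GRIK5 (253 ± 20.0 CPM) and the NMDA subunit GRIN2D (145 ± 11.6 CPM), while GRIN2A and GRIN2B were low. GABBR1, a GABA-B receptor subunit, was uneven with 66.4, 46.3, 29.5 and 60.6 CPM in replicates 1 to 4.

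Axon guidance genes were expressed in 24 of 28 cases (85.7%, against 65.3% of protein-coding genes), or in 25 without replicate 2. The Slit receptors ROBO2 and ROBO1 averaged 1403 ± 56.5 and 974 ± 34.2 CPM, and the semaphorin receptor components PLXNA1 and NRP2 617 ± 28.2 and 426 ± 3.62 CPM. DCC, the netrin receptor, averaged 227 ± 23.7 CPM, and the netrin genes NTN1 and NTN4 were listed at 0. Slit ligands were measured as well, with SLIT1 at 60.6 ± 4.76 CPM and SLIT2 at 16.9 ± 2.21 CPM.

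TH was expressed between 308 and 351 CPM in the 4 libraries, and the other 6 genes of dopamine synthesis averaged between 0.114 and 11.6 CPM. TH (chr11:2163929-2171877 on GRCh38, minus strand) had 337, 351, 308 and 313 CPM in replicates 1 to 4, a mean of 327 ± 20.0 CPM with a CV of 6.11%. The 4 libraries lay close together, with replicates 1 and 2 above replicates 3 and 4. DDC (chr7:50458436-50565457, minus strand), which acts directly after TH, had 1.31, 0.638, 1.63 and 1.68 CPM in replicates 1 to 4 and was called low because replicate 2 fell under the threshold. Per length TH came to 171 and DDC to 0.644 CPM per kb.

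The tetrahydrobiopterin genes were likewise low or modest. GCH1, the entry enzyme of cofactor synthesis, had 5.68, 4.31, 3.58 and 0.839 CPM in replicates 1 to 4, with replicate 4 apart from the others. PTS, the next enzyme, averaged 8.56 ± 2.93 CPM, and SPR, which completes the cofactor, was below the floor with at most 2 counts in a library. QDPR, which recycles the cofactor, averaged 11.6 ± 2.75 CPM and was expressed, while PCBD1, the other recycling enzyme, was low at 1.54 ± 0.581 CPM. In all, 3 of 7 synthesis genes were expressed, a smaller share (42.9%) than the 65.3% of protein-coding genes. Without replicate 2, 4 of the 7 were expressed, since DDC then passed in all 3 libraries. The count was also 4 without replicate 3 and 4 without replicate 4. At a threshold of 0.5 CPM 6 passed, so the count rests on genes lying at the threshold.

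Genes that store, move and break down dopamine were expressed in 4 of 9 cases (44.4%, against 65.3% of protein-coding genes), or in 5 without replicate 2. The vesicular transporter SLC18A2 (chr10:117241073-117279430, plus strand) had 1.02, 0.957, 1.30 and 2.24 CPM in replicates 1 to 4 and the dopamine transporter SLC6A3 (chr5:1392790-1445430, minus strand) 6.12, 7.66, 7.17 and 7.18 CPM. SLC18A2 was highest in replicate 4 and was called low because of replicate 2 alone, whereas SLC6A3 was above it in all 4 libraries. The second vesicular transporter SLC18A1 was low. Per length, SLC6A3 came to 1.79 and SLC18A2 to 0.334 CPM per kb.

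Of the breakdown enzymes, the aldehyde dehydrogenase ALDH2 averaged 56.9 ± 2.73 CPM. MAOA had 0.728, 0.638, 0.326 and 0.186 CPM in replicates 1 to 4 and MAOB 0.437, 0, 0.326 and 0.280 CPM, both low. ALDH1A1, which marks a subset of midbrain dopaminergic neurons, was listed at 0. The dopamine autoreceptor gene DRD2 was expressed with 149, 121, 119 and 106 CPM in replicates 1 to 4, highest in replicate 1, while DRD4 was low at 1.10 ± 0.744 CPM, DRD5 was below the floor and DRD3 was listed at 0. DRD4 had no count in replicate 2, and without that library 2 of the 4 receptor genes were called expressed.

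Midbrain transcription factors included expressed genes and 4 genes listed at 0. OTX2 had 71.5, 71.5, 81.1 and 87.2 CPM in replicates 1 to 4, EN1 49.4, 54.4, 45.3 and 47.6 CPM and EN2 37.1, 37.97, 33.4 and 33.8 CPM. These 3 had CVs of at most 9.89%. NR4A2, the orphan nuclear receptor that drives TH and SLC6A3 in midbrain neurons, averaged 7.25 ± 1.45 CPM, SOX6 3.32 ± 0.521 CPM and LMX1B 1.48 ± 0.321 CPM. LMX1A, FOXA2, PITX3 and MSX1 were listed at 0 in all 4 libraries, and FOXA1 had 1 count in 1 library. Thus 7 of 12 members were expressed (58.3%, against 65.3% of protein-coding genes).

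Genes that separate dopaminergic subtypes, and receptors for their survival factors, included the receptor for GDNF (glial cell line-derived neurotrophic factor). Its binding subunit GFRA1 had 1658, 1445, 1653 and 1547 CPM in replicates 1 to 4 and its signalling subunit RET 83.8, 137, 102.3 and 95.3 CPM. RET was highest in replicate 2, the library in which GFRA1 was lowest. The related subunit GFRA2 averaged 9.98 ± 2.55 CPM, the ligand NRTN 28.2 ± 1.74 CPM, and GDNF itself was low at 1.09 ± 0.604 CPM. The neurotrophin receptor NTRK3 averaged 11.6 ± 1.30 CPM and the BDNF receptor NTRK2 was low at 1.29 ± 0.553 CPM. Among subtype markers CALB1 averaged 3.02 ± 0.674 CPM, KCNJ6, which encodes the GIRK2 channel, was low, and CALB2, VIP and GRP were listed at 0. In all, 6 of 17 subtype genes were expressed (35.3%, against 65.3% of protein-coding genes).

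**Figure D2:**
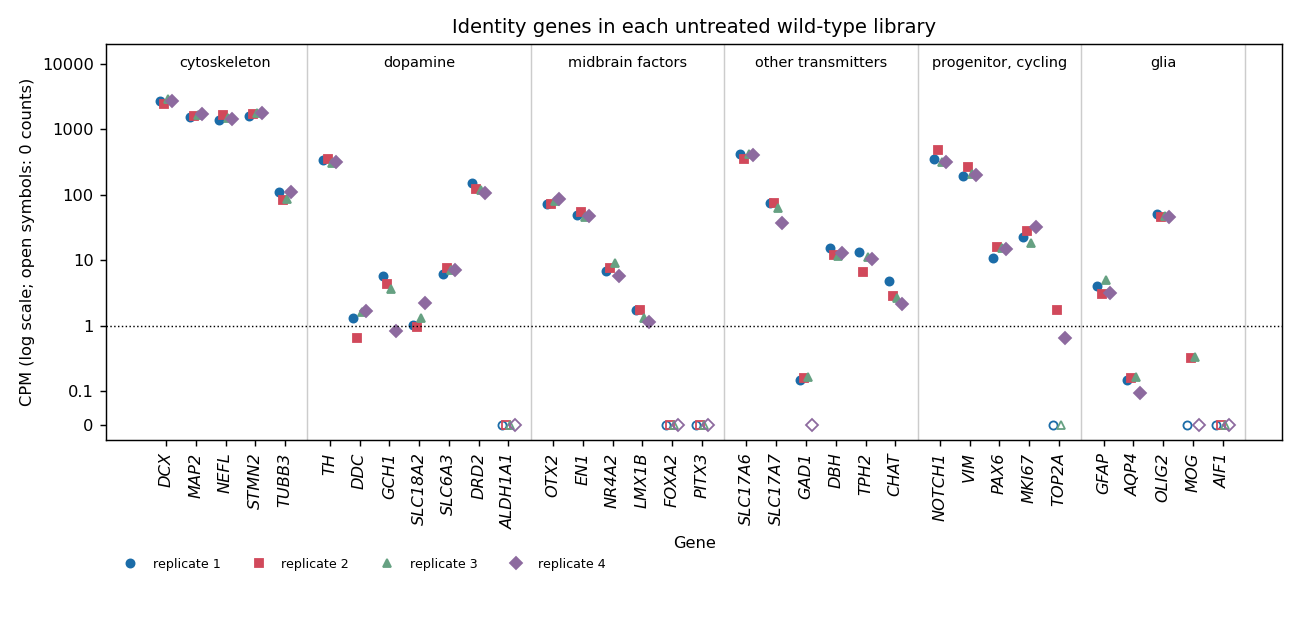
CPM of identity genes (x axis, grouped by role) in each of the 4 untreated wild-type libraries (y axis, log scale, 1 symbol per library); open symbols at the foot stand for 0 counts and the dotted line marks 1 CPM. TH lies between 308 and 351 CPM, DDC and SLC18A2 lie around 1 CPM, and ALDH1A1, FOXA2, PITX3 and AIF1 have 0 counts in every library.

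Promoters were set beside these levels because CpG-rich promoters are typical of broadly active genes and CpG-poor ones of genes limited to certain cells. RefSeq promoters on GRCh38.p14, from 250 bases before to 50 after the first listed start, were matched to 14224 protein-coding genes. Of them 58.4% were CpG-rich, meaning a GC content of at least 55% and an observed-to-expected CpG ratio of at least 0.65. The share was 76.3% for expressed genes of 100 CPM or more, 75.3% from 10 to 100 CPM and 59.9% under 10 CPM. It was 41.9% for low genes, 29.9% below the floor and 16.1% for genes listed at 0. The letters TATAAA, searched on both strands, were found in 5.30% of expressed promoters and in 25.1% of those listed at 0, against 9.08% of all promoters. GGGCGG, also on both strands, was found in 67.8% of expressed promoters and in 25.5% of those listed at 0, against 59.4% of all. Expressed members of the neuronal lists, 58 with a promoter, were CpG-rich in 56.9%, against 71.1% of all expressed genes. The 4 promoters below set single genes beside these shares, with CpG in capitals.
DCX (chrX:111412143-111412442, minus strand, 2669 CPM): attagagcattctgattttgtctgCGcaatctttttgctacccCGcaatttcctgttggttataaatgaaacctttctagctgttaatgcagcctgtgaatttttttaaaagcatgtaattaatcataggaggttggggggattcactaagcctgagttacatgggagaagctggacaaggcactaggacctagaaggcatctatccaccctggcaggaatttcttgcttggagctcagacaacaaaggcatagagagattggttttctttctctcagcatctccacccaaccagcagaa
EBF3 (chr10:129964225-129964524, minus strand, 2189 CPM): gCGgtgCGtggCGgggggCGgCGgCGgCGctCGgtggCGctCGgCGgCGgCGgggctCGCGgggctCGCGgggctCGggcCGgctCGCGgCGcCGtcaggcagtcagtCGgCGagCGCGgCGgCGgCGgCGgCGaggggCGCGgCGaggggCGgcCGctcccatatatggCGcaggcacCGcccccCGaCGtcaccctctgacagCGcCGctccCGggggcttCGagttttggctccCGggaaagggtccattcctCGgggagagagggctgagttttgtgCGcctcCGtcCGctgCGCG
SLC18A2 (chr10:117240864-117241163, plus strand, 1.38 CPM): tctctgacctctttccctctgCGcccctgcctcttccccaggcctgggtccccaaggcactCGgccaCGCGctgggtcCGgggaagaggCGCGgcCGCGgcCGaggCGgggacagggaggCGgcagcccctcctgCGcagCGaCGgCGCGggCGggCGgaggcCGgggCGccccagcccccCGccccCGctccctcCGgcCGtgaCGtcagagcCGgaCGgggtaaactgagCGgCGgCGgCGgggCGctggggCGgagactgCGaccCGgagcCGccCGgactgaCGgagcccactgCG
LMX1A (chr1:165356666-165356965, minus strand, 0 CPM): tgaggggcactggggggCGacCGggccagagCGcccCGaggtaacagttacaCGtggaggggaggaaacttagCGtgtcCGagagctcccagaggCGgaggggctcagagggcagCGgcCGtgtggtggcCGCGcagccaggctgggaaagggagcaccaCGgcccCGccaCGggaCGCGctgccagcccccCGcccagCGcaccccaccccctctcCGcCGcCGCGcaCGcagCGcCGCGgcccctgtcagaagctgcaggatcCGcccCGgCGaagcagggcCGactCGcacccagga
The DCX window holds 2 CpG at 43.0% GC and belongs to a gene among the 25 of highest CPM. EBF3, in the same group, has 52 CpG at 78.7% GC. The windows of SLC18A2 and LMX1A hold 40 and 32 CpG although these genes were low and listed at 0. A CpG count describes the letters of the window and says nothing about methylation, which was not measured here.

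Markers of other transmitter types were mixed. SLC17A6, the vesicular glutamate transporter VGLUT2 that part of the midbrain dopaminergic neurons also use, had 421, 356, 414 and 405 CPM in replicates 1 to 4. SLC17A7, or VGLUT1, had 74.7, 75.5, 61.6 and 37.5 CPM, lowest in replicate 4, and SLC17A8 was low. Per length SLC17A6 came to 100.98 CPM per kb, below TH at 171. The cortical glutamatergic factor EOMES averaged 18.9 ± 5.34 CPM, while TBR1 was low. In all, 4 of 6 glutamatergic genes were expressed, a share of 66.7% beside the 65.3% of protein-coding genes.

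GABAergic genes were expressed in 2 of 11 cases (18.2%, against 65.3% of protein-coding genes). GAD1, the GABA-synthesising enzyme, had at most 1 count in a library, and GAD2 was listed at 0. Noradrenergic genes were represented by DBH, which turns dopamine into noradrenaline, at 15.3, 12.1, 11.7 and 12.9 CPM in replicates 1 to 4. It was the only expressed member of 6 (16.7%, against 65.3% of protein-coding genes). The noradrenaline transporter SLC6A2, the enzyme PNMT and the factor PHOX2A were low. The neuronal tryptophan hydroxylase TPH2 of serotonin synthesis had 13.1, 6.54, 11.1 and 10.4 CPM in the same order, lowest in replicate 2. GATA2 averaged 29.2 ± 8.52 CPM, the serotonin transporter SLC6A4 1.58 ± 0.261 CPM, and the serotonergic factor FEV was below the floor. Of the 6 serotonergic genes 4 were expressed, again near the share of all protein-coding genes, and 2 at a threshold of 2 CPM. Of the cholinergic genes 2 of 5 were expressed (40%, against 65.3% of protein-coding genes). These were CHAT at 3.11 ± 1.17 CPM and ISL1 at 1.97 ± 0.511 CPM, and the choline transporter SLC5A7 was below the floor. The glycine transporter SLC6A9 averaged 66.8 ± 2.68 CPM, whereas the neuronal form SLC6A5 had 1 count in 1 library and the histamine enzyme HDC was listed at 0.

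Sensory neuron genes were expressed in 6 of 8 cases (75%, against 65.3% of protein-coding genes), in 7 without replicate 2 and in 4 at a threshold of 2 CPM. They include the transcription factor POU4F2 at 225, 230.2, 244 and 239.6 CPM in replicates 1 to 4. DRGX averaged 8.59 ± 1.63 CPM and RUNX1 3.07 ± 1.14 CPM, and RUNX3 was below the floor. Neuropeptide genes were expressed in 4 of 15 cases (26.7%, against 65.3% of protein-coding genes). These were the enkephalin precursor PENK (44.5 ± 7.17 CPM), TRH (29.5 ± 7.28 CPM), ADCYAP1 (8.73 ± 2.51 CPM) and NMB (1.70 ± 0.211 CPM). The dense-core granule list was expressed in 6 of 11 cases (54.5%, against the same 65.3%). The amidating enzyme PAM averaged 521 ± 23.8 CPM, while the granins CHGA and CHGB averaged 6.77 ± 1.37 and 2.23 ± 0.564 CPM. SCG3, another granin, had 0, 11.5, 26.1 and 1.58 CPM in replicates 1 to 4, a spread from no count to 160 counts.

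Of 13 progenitor genes 8 were expressed, with a median of 13.4 CPM. Their share of 61.5% is near the 65.3% of all protein-coding genes. NOTCH1 had 356, 476, 318 and 314 CPM in replicates 1 to 4, the intermediate filament VIM 192, 261, 206 and 198 CPM and PAX6 10.9, 16.1, 15.3 and 14.9 CPM. All 3 were highest in replicate 2. SOX1 and FABP7 were low, the Notch target HES1 had counts in replicate 1 alone, and SOX3 was below the floor. LIN28B, a repressor of let-7 maturation found in early progenitors, averaged 53.4 ± 7.74 CPM and HMGA2 33.9 ± 6.55 CPM, while LIN28A had 0, 21.9, 16.3 and 15.4 CPM in replicates 1 to 4. Of the neurogenic genes, 3 of 6 were expressed (50%, against 65.3% of protein-coding genes), or 4 without replicate 2. The Notch pathway inhibitor DLL3 averaged 452 ± 98.5 CPM, NEUROD1 235 ± 17.9 CPM and HES6 35.4 ± 5.06 CPM.

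Of 21 proliferation genes 16 were expressed (76.2%, against 65.3% of protein-coding genes). Their median was 6.20 CPM, against 7.19 CPM over protein-coding genes. The replicative helicase subunits MCM7 (291 ± 26.8 CPM) and MCM4 (96.4 ± 8.67 CPM) were expressed, while MCM6 was below the floor. MKI67, which encodes the Ki-67 antigen, had 22.4, 28.2, 18.4 and 32.3 CPM in replicates 1 to 4, CDK1 averaged 10.8 ± 1.84 CPM and PCNA 4.17 ± 0.821 CPM. TOP2A had counts in replicates 2 and 4 alone, and cyclin CCNA2 had 8.01, 0, 19.1 and 0 CPM in replicates 1 to 4. Cell cycle inhibitors were expressed in 4 of 8 cases (50%, against 65.3% of protein-coding genes). CDKN1C, the p57 inhibitor, had 439, 438, 463 and 422 CPM in replicates 1 to 4 and CDKN2D averaged 72.4 ± 6.46 CPM. Per length CDKN1C came to 228 and MKI67 to 2.00 CPM per kb. How many cells were cycling, and how much RNA each gave, cannot be told apart in bulk libraries, and the same holds for each cell type marker here.

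Of 58 entries for markers of glia and other lineages in 7 lists, 29 were expressed (50%, against 65.3% of protein-coding genes), 17 were low, 6 were below the floor and 6 were listed at 0. SOX10 is in both the oligodendrocyte lineage and the neural crest list and is counted in each. The 9 astrocyte markers summed to 65.6, 62.5, 61.6 and 59.7 CPM in replicates 1 to 4, and 5 were expressed. GJA1, the gap junction protein connexin 43, supplied much of that sum at 33.3 ± 8.06 CPM, GFAP averaged 3.83 ± 0.935 CPM and the water channel AQP4 was below the floor. SOX9 had 10.9, 0, 14.2 and 0 CPM in replicates 1 to 4. Oligodendrocyte lineage markers were expressed in 8 of 10 cases (80.0%, against 65.3% of protein-coding genes) and summed to 128 to 154 CPM. The factors OLIG2 (47.1 ± 2.91 CPM) and OLIG1 (45.9 ± 7.07 CPM), which also act in neuronal progenitors, were expressed, as were CSPG4 (23.4 ± 4.35 CPM) and MBP (18.3 ± 1.60 CPM). Of the other myelin genes, MOG was below the floor and MAG was listed at 0; at a threshold of 2 CPM, 5 of the 10 remained.

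Microglial markers summed to 4.47 to 6.70 CPM over 12 genes. CSF1R (2.43 ± 0.959 CPM) and the leukocyte antigen PTPRC (1.81 ± 0.216 CPM) passed 1 CPM, none passed 2 CPM in all libraries, and AIF1, ITGAM, C1QA and TYROBP were listed at 0. Endothelial and mesenchymal markers were expressed in 7 of 13 cases (53.8%, against 65.3% of protein-coding genes) and summed to 56.8 to 72.8 CPM. The tight junction gene CLDN5 supplied 29.4 ± 1.72 CPM, and the other 6 expressed genes averaged 1.40 to 8.99 CPM, among them the smooth muscle gene TAGLN at 6.76 ± 1.18 CPM and the matrix gene DCN at 1.40 ± 0.434 CPM. The endothelial genes PECAM1, CDH5, KDR and VWF and the mesenchymal gene LUM were low. Of 6 epithelial markers 4 were expressed (66.7%), a share near the 65.3% of protein-coding genes. The keratin KRT19 had 123.8, 138, 121.5 and 115.5 CPM in replicates 1 to 4, the tight junction gene CLDN4 averaged 13.1 ± 1.89 CPM, the keratin KRT8 3.41 ± 1.06 CPM and the remaining expressed marker 3.32 CPM, while KRT18 was below the floor and EPCAM low. Keratin genes have close paralogues, so their levels are uncertain. The pluripotency genes DPPA4 and ZFP42 averaged 2.21 ± 0.766 and 2.04 ± 0.945 CPM, POU5F1 was low and NANOG was listed at 0. Of the neural crest genes, SOX10 averaged 1.46 ± 0.440 CPM and the other 3 were low.

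Regional identity was described by forebrain and hindbrain lists. None of 14 hindbrain and spinal cord genes was expressed, against 65.3% of protein-coding genes, and 11 were listed at 0, among them HOXA2, HOXB1, HOXB2 and HOXC4. EGR2, the rhombomere factor, had 0.146, 0.319, 0.326 and 0.280 CPM in replicates 1 to 4 and GBX2 averaged 0.166 ± 0.226 CPM. Of 6 forebrain genes, LHX2 (78.2 ± 10.4 CPM) and EMX2 (19.4 ± 3.77 CPM) were expressed, and NKX2-1 and RAX were listed at 0. OTX2 at 77.8 ± 7.70 CPM, EN1 and EN2 given above are the midbrain genes to set beside them.

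Genes tied to inherited Parkinson disease were expressed in 13 of 15 cases (86.7%, against 65.3% of protein-coding genes), with a median of 34.7 CPM. UCHL1 averaged 1025 ± 46.9 CPM, the retromer subunit VPS35 306 ± 19.6 CPM and VPS13C 264 ± 32.6 CPM. PARK7 averaged 22.1 ± 2.11 CPM and PINK1 16.5 ± 3.66 CPM, whereas LRRK2 was low at 0.354 ± 0.213 CPM. In another list, gamma-synuclein SNCG averaged 85.0 ± 9.16 CPM and beta-synuclein SNCB had counts in replicate 4 alone. Per length SNCG came to 107 CPM per kb.

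Stress response genes were expressed in 9 of 16 cases, a share of 56.3% beside the 65.3% of protein-coding genes. The stress transcription factor ATF4 had 381, 461, 416 and 393 CPM in replicates 1 to 4 and JUN 246, 276, 237 and 249 CPM, while the ATF4 targets ASNS, DDIT3 and TRIB3 averaged 29.7 ± 3.13, 13.2 ± 0.938 and 3.01 ± 0.580 CPM and CHAC1 was low. The heme oxygenase gene HMOX1 was low at 0.608 ± 0.420 CPM, FOS and ATF3 were low, and the heat shock gene HSPA1A had counts in replicate 3 alone. CEBPB averaged 2.50 ± 0.567 CPM. Antioxidant enzymes were expressed in 13 of 14 cases (92.9%, against 65.3% of protein-coding genes), or in all 14 without replicate 2. Among them were the glutathione transferase GSTP1 (668 ± 65.2 CPM), thioredoxin reductase TXNRD1 (215 ± 13.3 CPM) and the lipid peroxide reductase GPX4 (213 ± 31.7 CPM). Catalase CAT had 3.35, 3.03, 14.8 and 3.54 CPM in replicates 1 to 4, highest in replicate 3; its mean of 6.19 CPM came to 3.30 CPM without that library.

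All 17 glycolysis genes and all 13 mitochondrially encoded mRNAs were expressed, against 65.3% of protein-coding genes. Mitochondrial mRNAs held 1.00, 0.868, 0.913 and 1.01% of counts in replicates 1 to 4. Lactate dehydrogenase subunits came to 393 for LDHB and 83.5 CPM per kb for LDHA, and hexokinases to 77.6 for HK1 and 5.59 for HK2. The reading frames of MT-ND4L and MT-ND4 overlap, which leaves the split of reads between this pair uncertain.

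**Figure D3:**
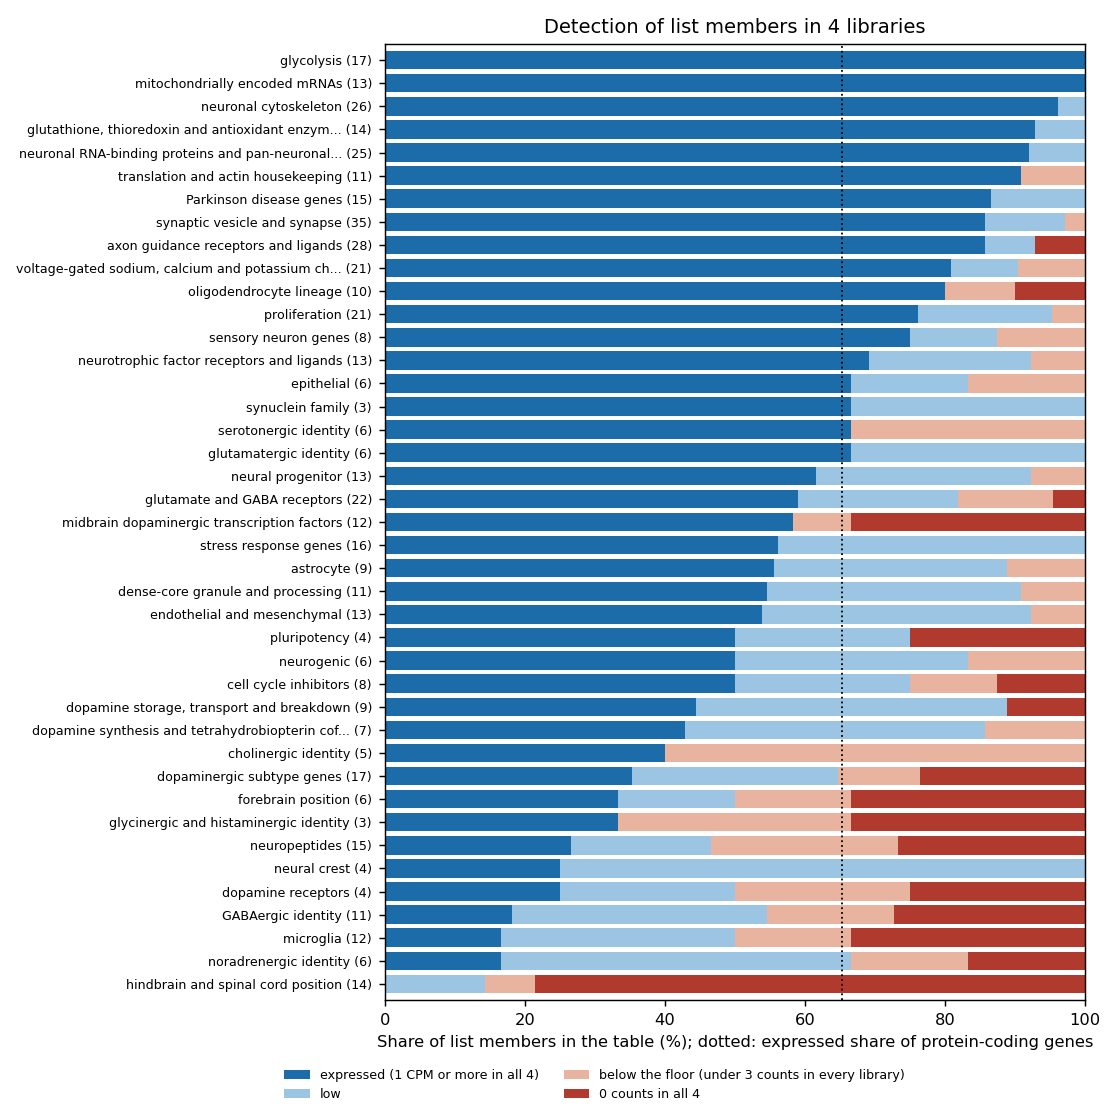
Share of the members of each gene list (y axis, number in the table in brackets) that were expressed, low, below the floor or at 0 counts in the 4 untreated wild-type libraries (x axis, %); the dotted line marks the 65.3% of protein-coding genes that were expressed. Neuronal cytoskeleton (96.2%) and synaptic genes (85.7%) lie to the right of the line, dopamine synthesis (42.9%), GABAergic identity (18.2%) and microglia (16.7%) to the left.

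The 4 libraries were close but not copies of each other. Across 14603 genes with a mean of at least 1 CPM, Pearson's r of log2 CPM between 2 libraries was 0.977 to 0.986. These are correlations across genes, which are not independent replicates. The counts of each pair differed by more than sampling, and the chi-square divided by its degrees of freedom lay between 3.59 and 8.56 in the 6 pairs. No library was therefore treated as a repeat. The common biological coefficient of variation, the spread left after counting error, was 13.1% over 12526 genes, and 10.5% without replicate 2. The median CV of a gene was 26.1% from 1 to 10 CPM, 11.5% from 10 to 100, 7.03% from 100 to 1000 and 5.57% from 1000 CPM. Counting error alone gives 20.5, 6.83, 2.71 and 0.987% in those bins, so that counting error made up much of the spread of low genes and little of that of high genes. Expressed genes had a median CV of 12.9%, against 7.18% for the neuronal cytoskeleton, 9.25% for synaptic genes, 23.1% for proliferation genes and 24.4% for astrocyte markers; these lists also differ in level.

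Even genes came from several functions. The 10 of smallest CV among those with a mean of at least 100 CPM included the butyrophilin BTN2A2 at 102.6, 101.8, 102.8 and 102.6 CPM in replicates 1 to 4, the plasma membrane calcium pump ATP2B4 (786 ± 4.12 CPM) and the semaphorin receptor NRP2 (426 ± 3.62 CPM). With 4 values per gene such small CVs lie under the spread that counting error alone gives.

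Uneven genes included the regulators AMER1 and REST. Of the 15 of largest CV among genes with a mean of at least 10 CPM, AMER1, a regulator of Wnt signalling, had 82.3, 0, 21.2 and 0.0932 CPM in replicates 1 to 4, or 565, 0, 130 and 1 counts. N-cadherin, CDH2, had 92.5, 1.60, 169 and 168 CPM, low in replicate 2 alone. REST, the repressor of neuronal genes in other cells, had 1.89, 23.1, 5.37 and 13.8 CPM, highest in replicate 2, and the interferon-induced gene IFITM1 17.0, 31.8, 1.79 and 11.8 CPM. The others were AC009412.1, SEL1L3, MGAT4A, GAB2, the pseudogenes H3F3AP4 and RNA5-8SP6, PSMD1, ARL6IP1, the read-through gene MSANTD3-TMEFF1, ZNF16 and HERC3. MSANTD3-TMEFF1 shares exons with its neighbours, so the division of its reads is uncertain.

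A small set of genes had no count in at least 1 library and at least 10 CPM in another, which is 61.4 to 107 counts at these depths. It held 12 of the 9570 genes that reached 10 CPM in a library, 9 of them at 0 in 1 library. SCG3, LIN28A, CCNA2, SOX9 and AMER1, given above, belonged to it. So did NOP14, KIF26B and DSTYK, with 11.4, 0.479, 0 and 6.90 CPM for DSTYK in replicates 1 to 4; these 3 were chosen for naming after their values had been seen. Of the 12, 4 were at 0 in replicate 1, 3 in replicate 2, 2 in replicate 3 and 6 in replicate 4, so the pattern was not limited to replicate 2 or to the shallowest library.

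**Figure D4:**
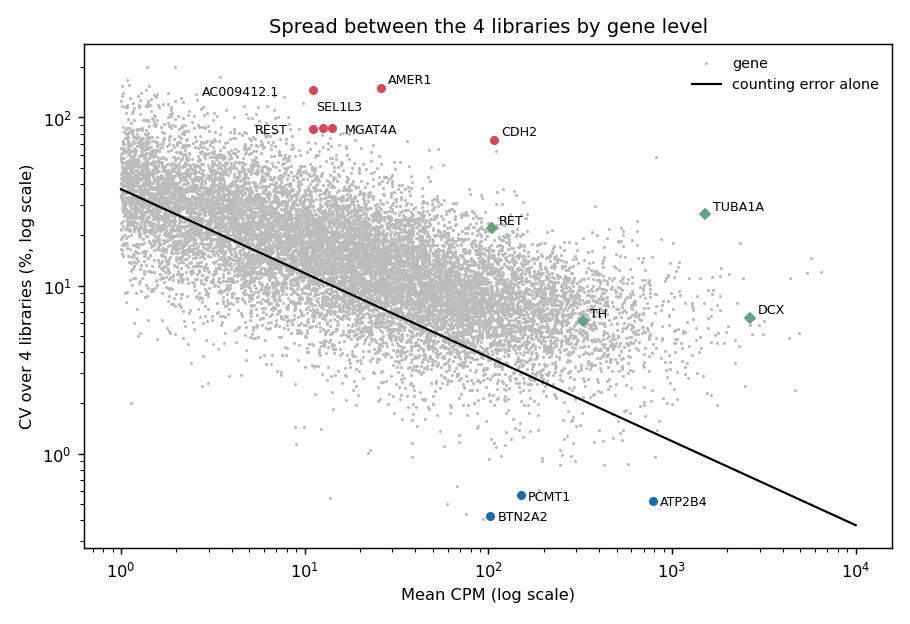
CV over the 4 untreated wild-type libraries (y axis, %, log scale) against mean CPM (x axis, log scale) for genes with a mean of at least 1 CPM; the line is the CV that counting error alone gives, red points are uneven genes, blue points even genes and green diamonds identity genes. The cloud follows the line at low levels and lies above it at high levels, with TH at 6.11%, TUBA1A at 26.5% and CDH2 at 73.6%.

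Replicate 2, like the other libraries, differed by gene group. Set against the mean of the other 3 libraries on the log2 scale, its median deviation was 0.48 for only 6 expressed dense-core granule genes and 0.33 for only 8 progenitor genes. It was 0.31 for 16 proliferation genes, 0.26 for 17 glycolysis genes and 0.17 for 77 cytosolic ribosomal proteins. It was −0.19 for mitochondrial mRNAs, 0.03 for the neuronal cytoskeleton and 0.00 over all expressed genes. Ribosomal protein genes held 2.17% of its counts, against 1.80 to 1.93% in the others. By transcript length its median deviation was 0.06 in the 3325 shortest expressed genes, 0.02 and −0.01 in the next groups of that size and −0.04 in the 3325 longest. The part of transcript length in the differences between gene groups was not tested. Its total of 6.44 M counts lay between those of replicates 3 and 1. On the same log2 scale, the median deviation of replicate 3 was −0.43 for 5 astrocyte markers. That of replicate 4 was 0.24 for mitochondrial mRNAs, and that of replicate 1 was −0.22 for progenitor genes.

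**Figure D5:**
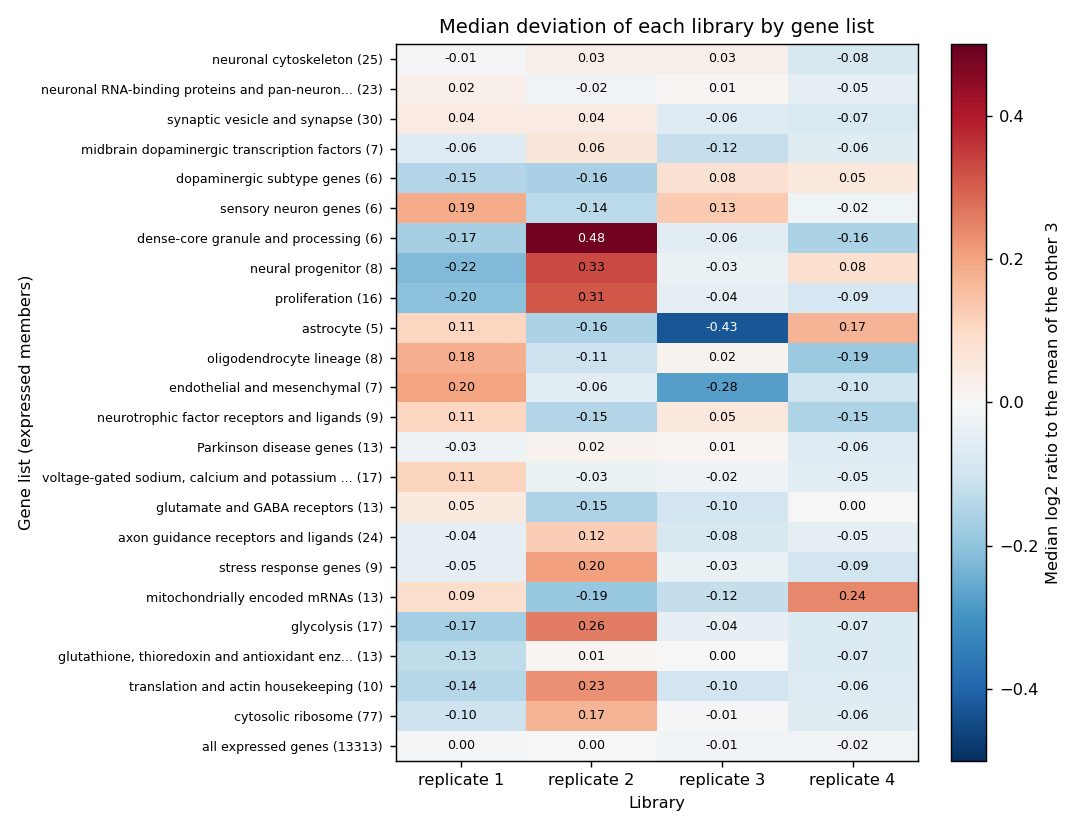
Median log2 ratio of each untreated wild-type library to the mean of the other 3 (colour and number), for the expressed members of each gene list (y axis, number in brackets) and each library (x axis). Replicate 2 is highest for dense-core granule (0.48), progenitor (0.33) and proliferation genes (0.31) and lowest for mitochondrial mRNAs (−0.19).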

How the data were processed

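Polyadenylated RNA of 22 LUHMES libraries was measured, of which the 4 of untreated wild-type cells are described. The values are estimated counts per gene, deposited by the authors as whole numbers without normalisation. Per the submitters' processing notes, tools were Trimmomatic 0.38 and kallisto 0.46.2, with GRCh38 and hg38 as genome builds. The sources used here give neither the summing of transcripts to genes nor the use of strand, which leaves antisense, overlapping and closely paralogous genes uncertain.

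Columns were matched to samples by name. IDs were matched to GENCODE 29 without version (34658 of 34679) for positions, types and lengths; 19 symbols are shared by several IDs. Counts were scaled by TMM in edgeR 4.0.16 (R 4.3.3). Dispersion was estimated with an intercept-only design after filterByExpr at a minimum count of 10. Log2 CPM used a pseudocount of 1, and deviations between libraries one of 0.5 CPM. No test between groups was made. Libraries were simulated with a spread of 10%, except for 200 genes of at least 10 CPM that were made more variable. The common spread came back as 12.3% with those 200 genes included. Of them, 171 were among the 200 of largest CV at a mean of 10 CPM or more.

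The 41 lists held 524 genes, 490 of them measured and 34 not analysed here. Members and lists were chosen with earlier results of these data known. Named genes are list members, the 25 highest by CPM and per length, the 15 of largest CV from 10 CPM and the 10 of smallest CV from 100 CPM; exceptions are stated, and some genes are not reported here. Alternatives were unscaled totals, DESeq2 1.42.0 size factors, thresholds of 0.5 and 2 CPM, other filters and lengths, and leaving out each library. Floors cover counting error only, since molecular identifiers are not named.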

Additional observations from a re-analysis of the deposited data

Results flagged for a closer look

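Each named gene, and 6 totals and shares of the libraries, was checked for 1 library far from the other 3, by Dixon's ratio of the gap to the range at the 95% critical value for 4 samples. Chance flags about 1 in 20 groups of 4 continuous values. Of 281 quantities 29 passed, and over all 13313 expressed genes 812 did (6.10%), 419 of them because of replicate 2 (51.6%). The 29 include genes of a few counts, to which that rate does not apply, so 29 of 281 cannot be set against 1 in 20. The total of replicate 4, 10.6 M counts, lay apart from the 6.11 to 6.79 M of the others.

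Replicate 2 was the library apart for 10 expressed genes and for 3 of few counts given below. It was high for ACTB (7667 CPM), ACTG1 (6371 CPM), the drebrin gene DBN1 (2124 CPM), PLLP (2396 CPM), TUBA1A (2119 CPM), PLXNA1 (659 CPM), MCM7 (331 CPM) and GPX4 (260.2 CPM). It was low for the sodium channel SCN3A (443 CPM) and the vesicle-tethering gene VPS13C (215 CPM). Among other expressed genes, DPYSL2 was low in replicate 1 (1792 CPM), catalase CAT high in replicate 3 (14.8 CPM), SOX6 high in replicate 4 (4.10 CPM) and PTPRC low in replicate 4 (1.49 CPM).

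The rest are genes of at most 9 counts in a library. Where all the other libraries had 0 counts, or all had 1, the ratio is at or near 1 by arithmetic. Such flags say little about a library. In replicate 1 GRIN2B (1.31 CPM), HES1 (0.437 CPM), DRD5 (0.146 CPM) and SLC6A5 (0.146 CPM) were high. In replicate 2 SV2C (0.319 CPM), FEV (0.160 CPM) and FOXA1 (0.160 CPM) were high, and in replicate 3 HSPA1A (0.489 CPM) and SOX3 (0.163 CPM). In replicate 4 SNCB (0.653 CPM), PHOX2A (0.466 CPM) and UBB (0.0932 CPM) were high, while GAD1 and RUNX3 had 0 CPM against 1 count in each other library.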

How the results depend on the processing

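Expressed genes numbered 13313 under all 3 scalings, 14505 at a threshold of 0.5 CPM, 11964 at 2 CPM and 13432 to 13650 with a library left out. Of the 41 gene lists, 32 kept their count of expressed members within 1.5 times in every alternative run. At 0.5 CPM the dopamine synthesis list rose to 6 of 7. At 2 CPM the serotonergic list had 2 expressed members, the cholinergic 1, the GABAergic 1, the oligodendrocyte lineage 5, and the microglial, pluripotency and neural crest lists 0. With a library left out, the dopamine receptor list had 1 to 2 expressed members and the neural crest list 1 to 2; these lists are short and their genes lie near the threshold. The 25 highest genes held 7.92% of counts, 7.68% with mitochondrially encoded genes left out and 7.84 to 8.00% with a library left out. The common spread of 13.1% was 14.8% with no filter on low counts, where more low genes enter, and 10.5 to 14.3% with a library left out, lowest without replicate 2. With the median transcript length, 8 of the 25 highest genes per length stayed. Of 352 gene levels, 11 moved by more than 1.5 times with a library left out, 4 of them without replicate 1, 4 without replicate 2, 2 without replicate 3 and 1 without replicate 4. The genes were CAT and 10 of the 15 of largest CV, with AMER1 at 25.9 CPM over all 4 libraries and 7.06 CPM without replicate 1. The 352 levels do not cover every gene named above. Among those not covered, CCNA2 had 8.01, 0, 19.1 and 0 CPM in replicates 1 to 4, so its mean also rests on few libraries. The same holds for SCG3 and SOX9. Without replicate 2 REST came to 7.11 CPM, against 11.1 CPM over all 4, and IFITM1 to 10.3 CPM, against 15.6 CPM. Depth limits what can be said of genes under 10 CPM, whose median CV was 26.1%. No paired analysis was possible because only 1 group was described and no result comes from a test between groups.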
